A study of Mus musculus with 16 samples.

Results

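The genes described here are 10 genes that mark the oligodendrocyte lineage from the dividing precursor to the newly formed oligodendrocyte: Pdgfra, Cspg4, Olig1, Olig2, Sox10, Gpr17, Bcas1, Enpp6, Lhfpl3 and Nkx2-2. They were chosen by symbol from the 24411 gene symbols of the deposited tables. All 10 were found and all 10 passed the filter on low values, as did 16091 genes in all. That filter kept a gene whose mean TPM (a transcript level corrected for gene length and scaled to a common library total) was above 1 in at least 1 condition.

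Spinal cord was taken from 16 female C57BL/6J mice in 3 conditions. In the SCI + Atorvastatin group, 7 mice received a spinal cord injury (SCI) at 12 wk of age and were then injected daily with 10 mg/kg of atorvastatin, a statin that blocks cholesterol synthesis. In the SCI + Vehicle group, 7 mice received the same injury and daily injections of the carrier alone, a mixture of DMSO, PEG 400, Tween 80 and saline. The injury was a lateral compression to 0.25 mm at vertebral level T8-9, treatment began 2 wk later and lasted 4 wk, and cords were collected 6 wk after injury. The Uninjured Control group was 2 mice without injury or injection, which were younger at collection than the injured mice. Injury, surgery, daily injection of the carrier and age therefore cannot be told apart in a comparison with them. From each mouse a 5 mm segment around the injury, or the matching level, was sequenced as total RNA.

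Oligodendrocytes make the myelin of the spinal cord, and they arise from oligodendrocyte precursor cells that persist in the adult. Precursors divide under platelet-derived growth factor (PDGF), and those that commit to differentiate lose its receptor and pass through a short-lived stage before they make myelin. After SCI, precursors near the lesion are known to divide and to form new oligodendrocytes. Several of these genes are also active elsewhere: Pdgfra in fibroblasts, Cspg4 in pericytes around vessels and Sox10 in the Schwann cells of peripheral nerve. Because whole tissue was sequenced, a lower number of cells of a type and less RNA per cell cannot be told apart.

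The bases before Pdgfra and Cspg4 are shown because these 2 genes encode the surface proteins by which precursors are known, and both were called with atorvastatin. RefSeq (GRCm38.p6) had an entry for 6 of the 10 genes. Capitals mark the letters GGGCGG, read here as CCGCCC because they lie on the other strand. Pdgfra, chr5:75152001-75152250, plus strand, and Cspg4, chr9:56864854-56865032, plus strand, read 5′ to 3′ as follows.
Pdgfra: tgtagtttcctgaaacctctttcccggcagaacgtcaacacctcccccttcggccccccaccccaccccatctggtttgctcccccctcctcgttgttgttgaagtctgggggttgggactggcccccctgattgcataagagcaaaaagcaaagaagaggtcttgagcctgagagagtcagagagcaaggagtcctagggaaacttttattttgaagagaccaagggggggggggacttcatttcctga
Cspg4: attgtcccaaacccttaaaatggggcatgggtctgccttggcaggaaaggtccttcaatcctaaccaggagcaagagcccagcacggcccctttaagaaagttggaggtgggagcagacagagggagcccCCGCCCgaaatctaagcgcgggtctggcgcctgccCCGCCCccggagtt
In all, 5 motifs were searched on both strands in the 250 bases before each start. The first was CAGCTG, a form of the E-box that basic helix-loop-helix factors such as the Olig proteins bind. A second E-box form was CATATG. Short sites of Sox factors were searched as ACAAAG, with ACAATG as the other spelling. The GC box was searched as GGGCGG. No motif letters overlapped in these sequences. Pdgfra held none of these letters. Cspg4 held GGGCGG at 2 places, 120 to 115 and 85 to 80 bases before its RefSeq start, and 32.7% of 32851 RefSeq promoters held it at least once. Lhfpl3 held 2 copies of CAGCTG, which 13.0% of promoters held, and 1 of GGGCGG. Enpp6 and Olig2 held 1 copy each of ACAATG, which 10.7% of promoters held, Olig2 also 2 of GGGCGG, and Nkx2-2 held 1 of GGGCGG. The letters CATATG were in 3.46% of promoters, those of ACAAAG in 16.5%, and neither was in the 6 sequences.

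The 10 genes lie on 7 autosomes of GRCm38, and each is annotated as protein-coding. Pdgfra spans chr5:75152292-75198215, Cspg4 chr9:56865033-56899870 and Lhfpl3 chr5:22746059-23275597. Olig2 (chr16:91225457-91228677) and Olig1 (chr16:91269772-91271933) are neighbours on the same strand, with 41094 bases between them. Sox10 spans chr15:79154908-79165240 and Nkx2-2 chr2:147177546-147194243. Gpr17 spans chr18:31942997-31949636, Bcas1 chr2:170346991-170427845 and Enpp6 chr8:46986887-47096762. Exons of Gpr17 share 188 bases with Lims2 on the opposite strand, those of Nkx2-2 278 with Nkx2-2os, those of Lhfpl3 567 with A930003O13Rik and those of Bcas1 34 with Bcas1os2. Whether the counting used strand is not given in the sources used here, so reads in these stretches may belong to either gene.

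Libraries held 14823292 to 25579826 counts. A count was found for 16399 to 19338 genes in each SCI mouse, against 12732 and 12356 in the 2 controls. Among 10783 well-counted genes, 33.4% differed more than 2-fold between the 2 controls, and a median of 2.7% (1.57% to 9.06%) did so between any 2 of the 14 SCI mice. Liver genes were high in the controls, and 8 of 8 were lower in both SCI groups. Their summed level in CPM (counts scaled by TMM to the same library total) was 4398 and 790 in the controls. In SCI mice it was 0.336 to 10.4 CPM. The number of genes with a count and the liver RNA set both controls apart from every SCI mouse. In comparisons with the controls, these library differences cannot be told apart from injury. SCI + Vehicle replicates 4 and 7 had the lowest summed fibroblast genes of the 14 SCI mice (238 and 179 CPM, against 591 to 2113 CPM in the other 12). For the 10 genes and the correlations, results that rest on these mice are given with and without them. Calls and values of the other gene lists are given with them only. The spinal cord label held: neuron, astrocyte and myelin genes were high in every library.

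On the length-corrected scale, Bcas1 was the most abundant of the 10 genes in injured cord, with a median of 560 TPM over the 14 SCI mice (range 460.0 to 663 TPM). Bcas1 encodes a protein of newly myelinating and mature oligodendrocytes. Its lowest mouse stood above the highest mouse of Olig1, next in order with 157 TPM (116 to 198 TPM). Sox10 followed with 123 TPM (91.1 to 165 TPM), and Olig1 exceeded Sox10 in 14 of 14 mice. Gpr17 (38.2 TPM), Pdgfra (36.9 TPM), Olig2 (33.4 TPM) and Lhfpl3 (30.3 TPM) overlapped, and neighbours in that order changed places in 6 or 7 of the 14 mice. Nkx2-2 (22.6 TPM), Cspg4 (22.0 TPM) and Enpp6 (21.8 TPM) came last and also overlapped. Nkx2-2 exceeded Cspg4 in 6 of 14 mice and Cspg4 exceeded Enpp6 in 4 of 14, so most mice did not follow the order of these medians. The spread between SCI mice was smallest for Bcas1, with a coefficient of variation of 8.55%, and largest for Nkx2-2 with 31.3%.

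SCI + Vehicle vs. Uninjured Control asks what differed between chronically injured, carrier-injected mice and uninjured, uninjected ones. Cspg4 and Gpr17 were upregulated and Bcas1 was downregulated, and the other 7 genes were not called. A gene was called when its adjusted p in edgeR was below 0.05 and its absolute log2 fold change above 0.322. The 2 upregulated of 10 compare with 19.9% of all genes tested, and the 1 downregulated with 9.91%, so neither share stood out from the background. SCI + Atorvastatin vs. Uninjured Control called 5 genes, with Pdgfra, Cspg4 and Gpr17 upregulated and Olig1 and Bcas1 downregulated. There the background was 24.9% upregulated and 14% downregulated. The median log2 fold change of the 10 genes was 0.147 with vehicle and 0.292 with atorvastatin, beside 0.172 and 0.206 over all genes. Both comparisons use the same 2 controls and are not independent. Every call of the 10 genes against the controls was lost by voom with group quality weights, which lets the spread differ between groups and was added after the data were seen (0.814% and 0.901% of all genes called).

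**Figure D1:**
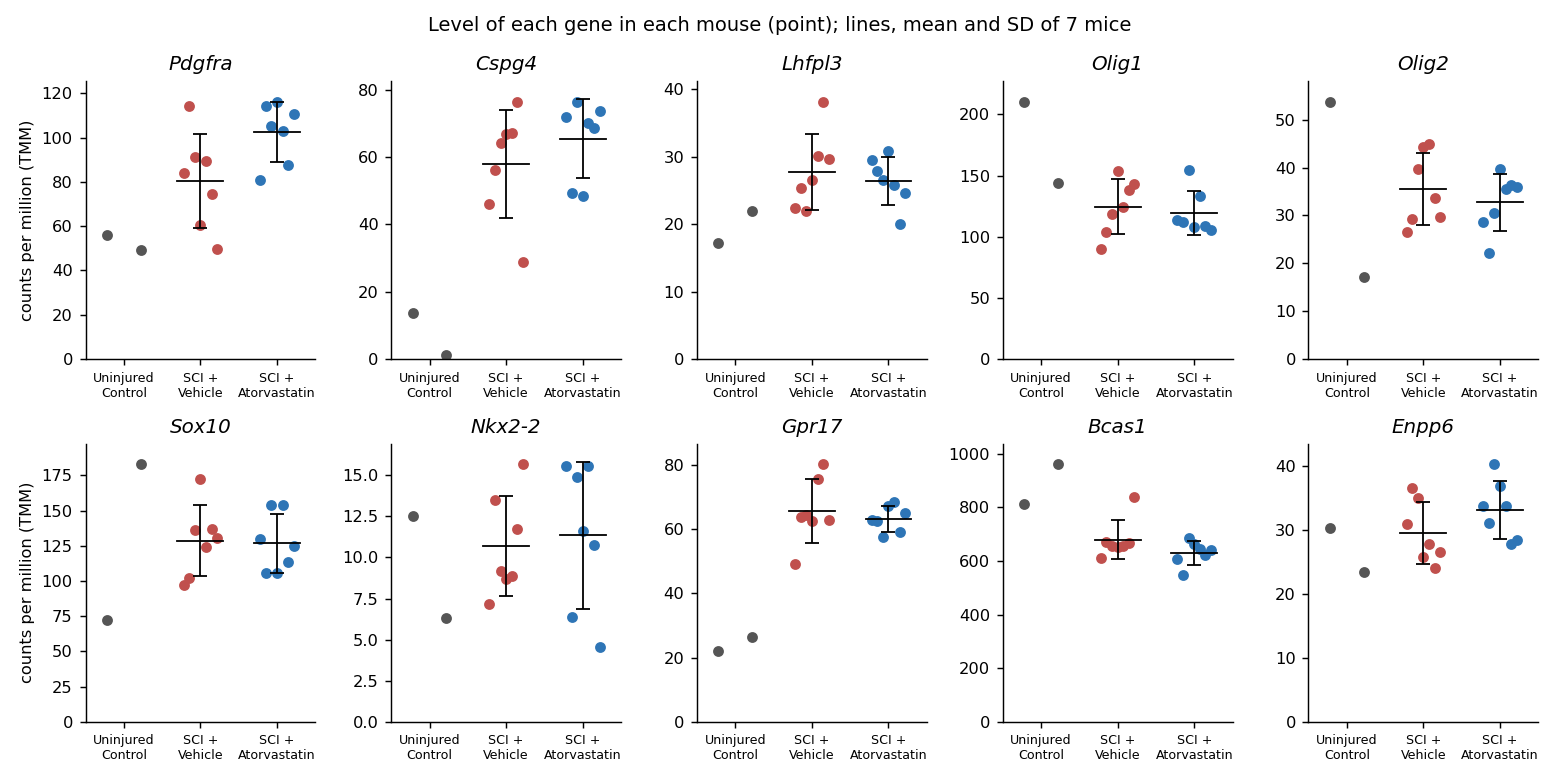
Level of each of the 10 genes in each mouse, in CPM after TMM scaling (vertical axis, from 0), for Uninjured Control (grey, 2 mice), SCI + Vehicle (red, 7 mice) and SCI + Atorvastatin (blue, 7 mice); black lines show the mean and SD of 7 mice. Cspg4 and Gpr17 lay above both controls in all 14 SCI mice, as did 22.8% of all genes tested. The 2 controls lay on either side of all SCI mice for Olig2 and for Sox10.

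The surface proteins of precursors came first in the lineage. Pdgfra encodes the receptor for PDGF-AA, which keeps precursors dividing. Its level was 56.1 and 49.3 CPM in the 2 controls. In SCI + Vehicle mice it was 49.6 at the lowest, 84.0 at the median and 114 CPM at the highest, and in SCI + Atorvastatin mice 81.0, 105 and 116 CPM. All 7 atorvastatin mice stood above both controls, and the lowest vehicle mouse, replicate 7, stood between them. Over all genes tested, 22.8% had all 14 SCI mice above both controls, which Pdgfra did not. The share with the 7 atorvastatin mice above both controls was not counted, and it can only be as large or larger. In edgeR the log2 fold change of Pdgfra was 0.97 ± 0.158 (SE) with atorvastatin (adjusted p = 0.000918, a 1.96-fold level). It was 0.60 ± 0.279 with vehicle (adjusted p = 0.131), which was not called. Without SCI + Vehicle replicates 4 and 7 the vehicle value was 0.77 ± 0.183 and was called (edgeR adjusted p = 0.0178), as it was without replicate 7 alone (0.68, adjusted p = 0.0447). With every mouse kept, 1 edgeR fit of all 3 groups also called it (0.61, adjusted p = 0.0434). DESeq2 did not (0.58, adjusted p = 0.113). Fibroblast genes moved with Pdgfra: 6 of 9 were upregulated with atorvastatin and 0 of 9 with vehicle, beside 24.9% and 19.9% of all genes. All 9 had a positive log2 fold change with vehicle too, with a median of 1.44 in edgeR against 2.53 with atorvastatin. Their summed level was 779 to 2113 CPM with atorvastatin, 179 to 1210 CPM with vehicle and 296 and 317 CPM in the controls. Replicates 4 and 7 held the lowest vehicle sums, 238 and 179 CPM, and the other vehicle mice held 591 to 1210 CPM. Between treatments none of the 9 was called, although all 9 were higher with atorvastatin and 8 had an unadjusted p below 0.05 in edgeR. These fibroblast results include replicates 4 and 7, and fits without them are not given for this list. The part of fibroblast RNA in the Pdgfra difference was not tested. The correlations given further on are among SCI mice with group means subtracted, so they do not measure it.

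Cspg4 encodes NG2, a chondroitin sulfate proteoglycan on the surface of precursors and pericytes. It had the largest fold of the 10 genes and also the least certain base level. The 2 controls held 13.6 and 1.13 CPM, from 271 and 25 counts. The SCI + Vehicle mice held 28.7 at the lowest, 64.2 at the median and 76.3 CPM at the highest, and the SCI + Atorvastatin mice 48.3, 70.2 and 76.5 CPM. All 14 SCI mice exceeded both controls, as did 22.8% of all genes tested. The log2 fold change in edgeR was 2.97 ± 0.749 with vehicle (95% interval 1.32 to 4.63, adjusted p = 0.0132) and 3.16 ± 0.719 with atorvastatin (1.56 to 4.76, adjusted p = 0.00593). Its size depended on which control was used. Against control 1 alone the vehicle value was 2.07, and against control 2 alone it was 5.66. On the TPM scale control 2 is listed at 0 in spite of its 25 counts, and 570 tested genes (3.54%) in that library had at least 25 counts with a TPM of 0. Control 1 had 467 such genes and the SCI mice 34 to 204. Pericyte and smooth muscle genes were upregulated in 2 of 10 (Rgs5 and Higd1b) with vehicle and 3 of 10 with atorvastatin, beside 19.9% and 24.9% of all genes. Their summed level was 196 to 448 CPM, 370 to 541 CPM and, in the controls, 197 and 308 CPM, and Higd1b had no count in either control. The part of pericyte RNA in the Cspg4 difference was not tested, and the correlations given further on, with group means subtracted, do not measure it.

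Lhfpl3 encodes a membrane protein enriched in precursors. It was 17.3 and 21.9 CPM in the controls, 22.0 to 38.2 CPM (median 26.6) with vehicle and 20.01 to 30.9 CPM (median 26.6) with atorvastatin. On the CPM scale all but 1 of the SCI mice stood above both controls, and on the TPM scale 4 of 14 did. The log2 fold changes in edgeR, 0.49 ± 0.263 and 0.44 ± 0.217, did not pass the test (adjusted p = 0.19 and 0.132).

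The transcription factors of the lineage gave less. Olig1, a basic helix-loop-helix factor needed for repair of myelin, was at 211 and 144 CPM in the controls. It was at 90.4, 124 and 154 CPM (lowest, median and highest) with vehicle and at 105, 112 and 155 CPM with atorvastatin. On the CPM scale all 14 SCI mice stood below control 1 and all but 2 below control 2, but on the TPM scale 8 of 14 stood above control 2. The log2 fold change in edgeR was -0.56 ± 0.172 with atorvastatin (adjusted p = 0.026, called) and -0.52 ± 0.19 with vehicle (adjusted p = 0.0621, not called). The vehicle value was called by DESeq2 (-0.54, adjusted p = 0.036), in 1 edgeR fit of all groups (-0.51, adjusted p = 0.0345) and against control 1 alone (-0.77, adjusted p = 0.0116). In edgeR it was also called without SCI + Vehicle replicates 4 and 7 (-0.64, adjusted p = 0.0481) and without replicate 4 alone (-0.57, adjusted p = 0.0486). The atorvastatin call was lost against control 2 alone (-0.26, adjusted p = 0.223), and limma on log2(TPM + 1) called Olig1 in neither comparison.

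Olig2, which specifies the lineage, showed how far the 2 controls lay apart. They held 53.8 and 17.1 CPM, a 3.15-fold difference, and all 14 SCI mice (22.2 to 44.9 CPM) lay between them. Medians were 33.7 CPM with vehicle and 35.5 CPM with atorvastatin. The log2 fold changes in edgeR were -0.01 ± 0.362 and -0.11 ± 0.359 (adjusted p = 0.999 and 0.851). Sox10, an HMG-box factor that acts from precursor to myelinating cell, had the same layout with the controls in the opposite order. Control 1 held 72.0 and control 2 held 183 CPM, and all 14 SCI mice (97.0 to 173 CPM) lay between, although on the TPM scale 1 stood above control 2. Medians were 131 CPM with vehicle and 125 CPM with atorvastatin. The log2 fold changes were -0.01 ± 0.296 and 0.00164 ± 0.286 (edgeR adjusted p = 0.999 and 1). Against control 2 alone Olig2 was called as higher with vehicle (1.04), and against control 1 alone Sox10 was (0.82), so neither gene had a direction that held for both controls. The 95% intervals for vehicle, -0.809 to 0.791 for Olig2 and -0.662 to 0.647 for Sox10, included changes as large as that of Olig1 in either direction.

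Nkx2-2, a homeodomain factor that promotes differentiation, was the least abundant by CPM. The controls held 12.6 and 6.3 CPM and the SCI mice 7.18 to 15.7 CPM with vehicle and 4.55 to 15.6 CPM with atorvastatin. Control 2 lay below every vehicle mouse and inside the range of the atorvastatin mice. Medians were 9.16 and 11.6 CPM. The log2 fold changes in edgeR were 0.17 ± 0.437 and 0.28 ± 0.52 (adjusted p = 0.807 and 0.714).

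The genes of committed precursors and newly formed oligodendrocytes moved apart. Gpr17, a G protein-coupled receptor that is switched on for a short time in committed precursors, was at 21.9 and 26.5 CPM in the controls. It was at 49.1, 63.9 and 80.2 CPM (lowest, median and highest) with vehicle and at 57.5, 62.8 and 68.6 CPM with atorvastatin. No SCI mouse overlapped the controls, and 22.8% of all genes tested likewise had all 14 SCI mice above both controls. The log2 fold change in edgeR was 1.42 ± 0.202 with vehicle (2.68-fold, adjusted p = 0.000641) and 1.40 ± 0.137 with atorvastatin (2.63-fold, adjusted p = 5.87e-05). It remained called against either control alone, 1.57 and 1.29 with vehicle, and without any 1 of the 7 SCI mice of either group.

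Bcas1 went the other way. It was at 811 and 961 CPM in the controls, at 611, 657 and 838 CPM with vehicle and at 547, 642 and 686 CPM with atorvastatin. Only SCI + Vehicle replicate 7, at 838 CPM, reached into the range of the controls. The log2 fold change in edgeR was -0.40 ± 0.116 with vehicle (adjusted p = 0.0252) and -0.48 ± 0.0959 with atorvastatin (adjusted p = 0.00288). The vehicle call was lost against control 1 alone (-0.27, adjusted p = 0.166) and without replicate 2 or replicate 3 (adjusted p = 0.0588 and 0.0628), and limma on log2(TPM + 1) did not call Bcas1 in either comparison. On the TPM scale control 1, at 583 TPM, stood below 3 of the 14 SCI mice.

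Enpp6, a choline-specific phosphodiesterase of newly forming oligodendrocytes, differed little. The controls held 30.4 and 23.5 CPM, the vehicle mice 24.0, 27.8 and 36.6 CPM and the atorvastatin mice 27.7, 33.7 and 40.3 CPM. The log2 fold changes in edgeR were 0.12 ± 0.234 and 0.31 ± 0.198 (adjusted p = 0.733 and 0.25). All groups overlapped.

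**Figure D2:**
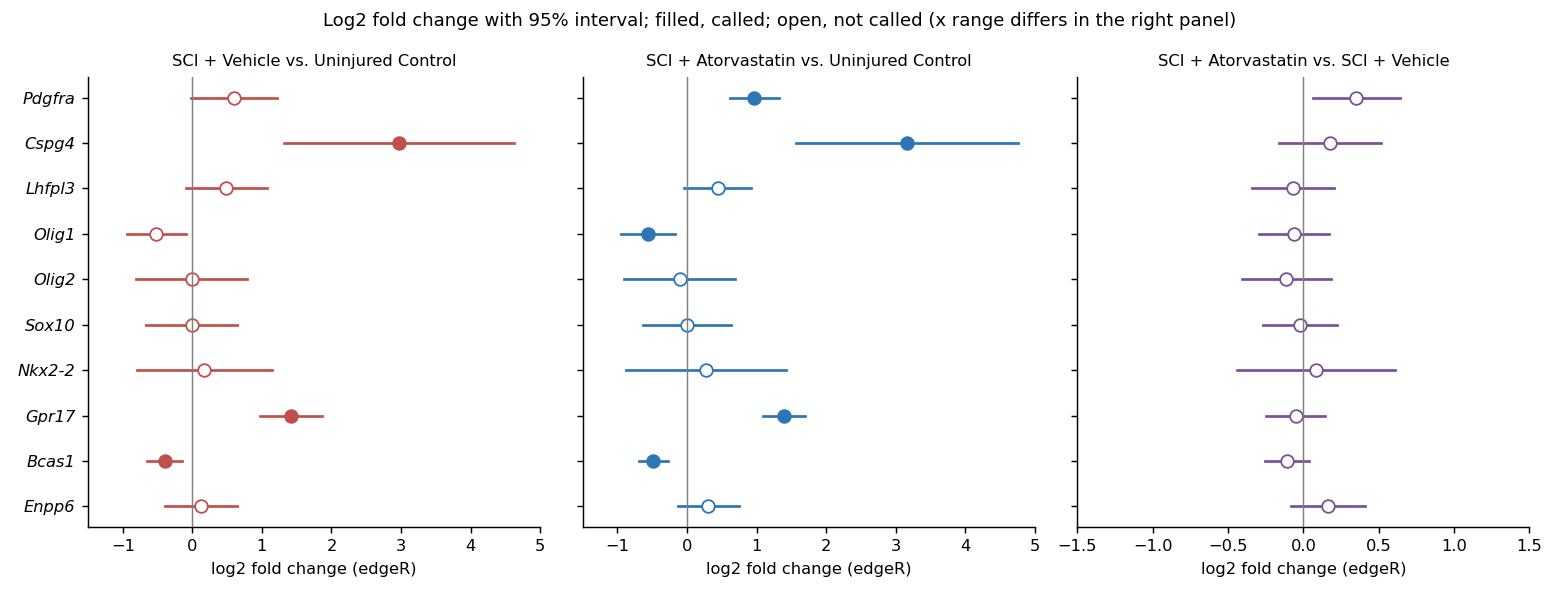
Log2 fold change of each of the 10 genes in edgeR (horizontal axis, 95% interval as a line) in the 3 comparisons, filled where called and open where not; the right panel has a narrower axis. Cspg4 (2.97 and 3.16) and Gpr17 (1.42 and 1.40) stood apart from 0 against the controls, and no gene was called between the treatments.

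SCI + Atorvastatin vs. SCI + Vehicle asks what the drug changed in injured cord. None of the 10 genes was called at the study's threshold between treatments, an unadjusted p below 0.001 with the same fold limit, which 0.106% of all genes passed in edgeR. DESeq2 and the limma fits also called 0 of the 10. At an unadjusted p below 0.05, edgeR had 1 of the 10 genes, Pdgfra, beside 7.03% of all genes. Pdgfra was higher with atorvastatin by 0.35 ± 0.139 on the log2 scale (95% interval 0.0606 to 0.64, unadjusted p = 0.0202, adjusted p = 0.68 in edgeR), and 6 of 7 atorvastatin mice exceeded the vehicle median. Without SCI + Vehicle replicates 4 and 7 the difference was 0.18 ± 0.108 (edgeR unadjusted p = 0.118, adjusted p = 1). The intervals of the other 9 genes included 0. They were narrowest for Bcas1 (-0.255 to 0.0398), Gpr17 (-0.247 to 0.143) and Olig1 (-0.296 to 0.17), and widest for Nkx2-2 (-0.439 to 0.607) and Cspg4 (-0.163 to 0.517). The median log2 difference over the 10 genes was -0.0362, beside -0.0014 over all genes.

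The wider lineage was read from lists of other genes, and each count of calls is to be set beside the share over all genes tested. That share was 19.9% upregulated and 9.91% downregulated with vehicle, and 24.9% and 14% with atorvastatin. Of 15 other precursor genes, 4 were upregulated and 1 downregulated with vehicle, and 5 were upregulated with atorvastatin. Ptprz1, a receptor phosphatase, was 0.41 ± 0.0955 higher with vehicle and 0.34 ± 0.0942 with atorvastatin on the log2 scale in edgeR. Vcan, the proteoglycan versican, rose by 0.93 ± 0.241 and 1.18 ± 0.312, and C1ql1, a secreted C1q-like protein, by 1.77 ± 0.423 and 2.08 ± 0.533. Matn4, a matrix protein of precursors, had no count in either control and 242 to 440 counts in every SCI mouse. Against a floor of 3 counts in a control library the level in SCI + Vehicle mice was at least 92.3-fold higher, and that in SCI + Atorvastatin mice at least 101-fold higher. These bounds cover counting error only, and the 2 controls could differ by far more, as for Pdgfb with 0 and 1167 counts. Emid1 was the downregulated gene (-1.74 ± 0.55 with vehicle) and was not called with atorvastatin (-0.99 ± 0.402, adjusted p = 0.077). Between treatments 0 of 15 were called, and the values with the smallest p were Emid1 (0.74) and Tmem100 (0.27). The median log2 fold change of the list was 0.36 with vehicle and 0.536 with atorvastatin.

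Of 11 further genes of committed precursors and newly formed oligodendrocytes, 3 were upregulated with vehicle and 4 with atorvastatin, and 0 were downregulated. Itpr2, a calcium channel of the endoplasmic reticulum, rose by 1.52 ± 0.177 and 1.60 ± 0.181 on the log2 scale in edgeR, and Tns3, a tensin, by 0.58 ± 0.2 and 0.73 ± 0.17. Tcf7l2, a Wnt pathway factor of newly formed oligodendrocytes, was called with atorvastatin (1.2 ± 0.251) and not with vehicle (0.91 ± 0.351, adjusted p = 0.0738). Tmem2 was the only gene of the lineage lists called between treatments. It was at 12.6 and 8.1 CPM in the controls, 16.1, 21.8 and 28.8 CPM with vehicle and 27.5, 30.6 and 36.6 CPM with atorvastatin, and the 2 treatment groups overlapped only through SCI + Vehicle replicate 2. Its difference between treatments was 0.52 ± 0.13 (unadjusted p = 0.00063, adjusted p = 0.68 in edgeR). Rras2 had the next smallest p (0.48 ± 0.227, unadjusted p = 0.0476 in edgeR).

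Mature myelin genes moved both ways. Of 13, 2 were upregulated and 2 downregulated with vehicle, and 2 and 4 with atorvastatin. Cldn11, the tight junction protein of myelin, rose by 0.69 ± 0.189 and 0.71 ± 0.178 on the log2 scale in edgeR, and Hapln2, a link protein at nodes, by 0.58 ± 0.131 and 0.46 ± 0.102. Mog fell by 0.49 and 0.43 and Ugt8a, which makes galactolipids of myelin, fell by 0.62 and 0.64. Mbp (-0.34) and Mobp (-0.45) were called with atorvastatin and not with vehicle (-0.21 and -0.33). The median log2 fold changes were -0.151 and -0.1. Between treatments 0 of 13 were called.

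Genes that hold back differentiation were upregulated in 4 of 10 with vehicle: Id2 (0.95 ± 0.213), Notch1 (0.81 ± 0.228), Hes1 and Bmp4. With atorvastatin the same 4 were upregulated and Lingo1 was downregulated (-0.75 ± 0.208). The vehicle value of Lingo1 was -0.65 ± 0.228 and was not called (edgeR adjusted p = 0.0536). Hes1 and Bmp4 had no count in either control, and their levels with vehicle were at least 24.3-fold and 68.7-fold higher than the floor. Genes that promote differentiation were upregulated in 2 of 8 with vehicle, Chd7 (0.61 ± 0.158) and Zfp191 (0.64 ± 0.163). With atorvastatin these 2 and Zeb2 (0.55 ± 0.149) were upregulated, and Sox8 (-0.48 ± 0.157) was downregulated. The vehicle values were 0.42 ± 0.165 for Zeb2 and -0.37 ± 0.209 for Sox8, neither of them called. Myrf, the master factor of myelination, was not called in either comparison (-0.34 ± 0.18 and -0.43 ± 0.17). None of these 18 genes was called between treatments, where Hes1 (0.60 ± 0.28) had the smallest p, unadjusted p = 0.0451 in edgeR.

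Among 10 ligands and receptors of the PDGF and fibroblast growth factor families, Pdgfa, the ligand of the Pdgfra receptor, was downregulated in both comparisons. It was at 104 and 47.7 CPM in the controls, 26.1 to 45.8 CPM with vehicle and 30.6 to 39.3 CPM with atorvastatin. All 14 SCI mice lay below both controls, as did 9.89% of all genes tested. The log2 fold change of Pdgfa was -0.99 ± 0.282 with vehicle (adjusted p = 0.0232) and -1.07 ± 0.228 with atorvastatin (adjusted p = 0.00416, edgeR). Fgfr1 was upregulated in both (0.42 ± 0.111 and 0.40 ± 0.104). Pdgfrb, the PDGF receptor of pericytes and fibroblasts, was called with atorvastatin (1.24 ± 0.239) and not with vehicle (0.74 ± 0.467). Fgf1 was downregulated with atorvastatin (-0.33 ± 0.0827) and not called with vehicle (-0.33 ± 0.14). Of 6 proliferation genes 3 were upregulated with vehicle and 5 with atorvastatin, beside 19.9% and 24.9% of all genes. Mki67 was called with atorvastatin (1.49 ± 0.258) and not with vehicle (1.45 ± 0.584, adjusted p = 0.0851 in edgeR). Cdk1 had negative values and was not called (-1.21 ± 1.62 and -0.90 ± 1.22). It was at 0 and 7.07 CPM in the controls, and control 2 stood above every SCI mouse. Top2a, Birc5, Ccnb1 and Ccnb2 had no count in either control, and Top2a was at least 94.3-fold higher than the floor with vehicle. These genes are active in any dividing cell, and microglia and macrophage genes were upregulated in 7 of 10 with vehicle and 8 of 10 with atorvastatin, from 128 and 225 CPM summed in the controls to 1002 to 1663 CPM in SCI mice. Which cells divided was not tested.

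**Figure D3:**
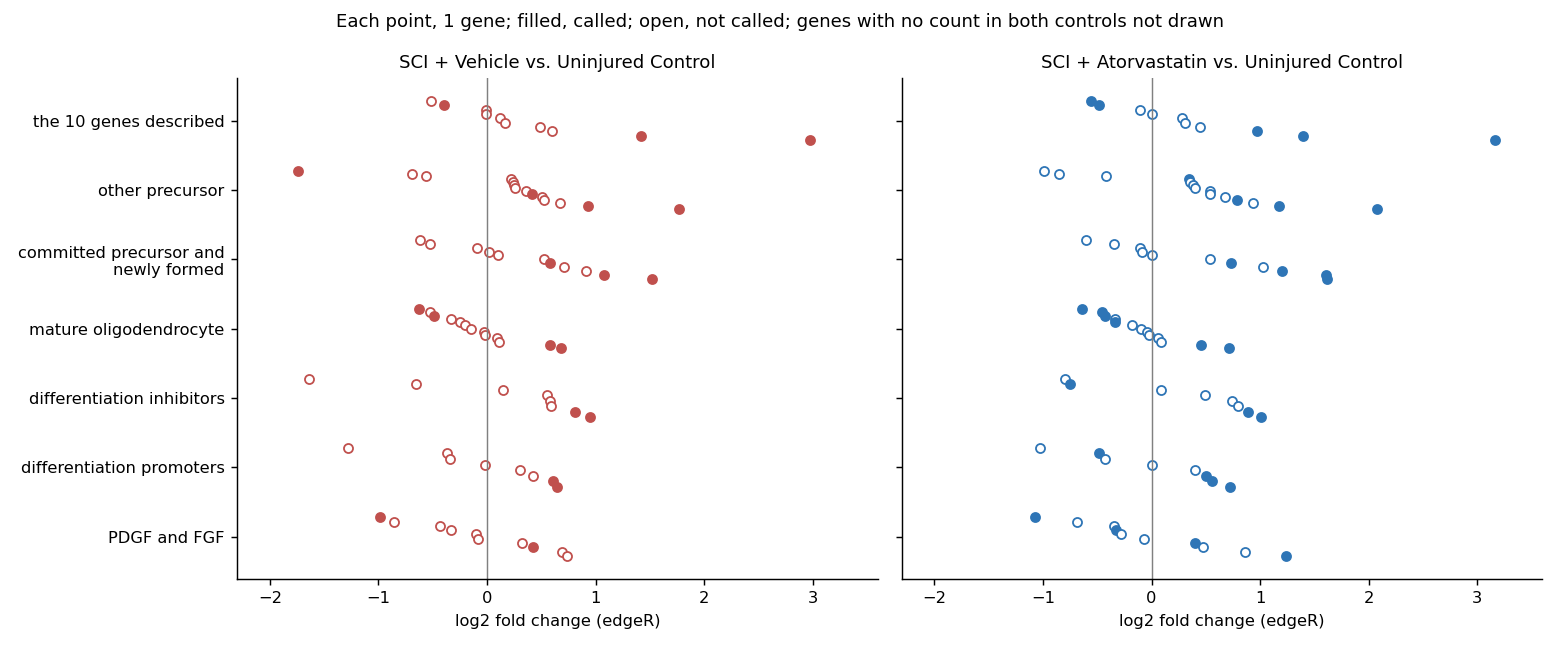
Log2 fold change in edgeR (horizontal axis) of each gene (point) of the 10 genes described and of 6 lineage lists, for both comparisons with the controls, filled where called; 3 genes with no count in either control (Matn4, Hes1 and Bmp4) are not drawn. Called genes lay on both sides of 0 among mature myelin genes and only above 0 among the genes of committed precursors, with 3 called in the left and 4 in the right panel. Over all genes tested, 19.9% were upregulated and 9.91% downregulated in the left comparison, and 24.9% and 14% in the right.

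Whether Pdgfra, Cspg4 and Sox10 followed their lineage or another cell type that expresses them was asked across the 14 SCI mice, after the mean of each treatment group was subtracted. Pdgfra followed the mean of 9 fibroblast genes, with Pearson r = 0.855 (permutation p = 0.00102, adjusted over 6 relations p = 0.00612) and Spearman rho = 0.67 (permutation p = 0.0241, adjusted p = 0.145). Its r with 15 other precursor genes was -0.388 (permutation p = 0.253, adjusted p = 0.42; rho = -0.433, permutation p = 0.17, adjusted p = 0.255). The relation with fibroblast genes leaned on 2 mice. Without SCI + Vehicle replicates 4 and 7, which were also the 2 farthest from the median before recentring, r was 0.669, permutation p = 0.033 and adjusted p = 0.198, with the group means kept. With group means taken anew it was 0.555, permutation p = 0.0694. Within the 7 vehicle mice r was 0.896 (exact permutation p = 0.00794) and within the 7 atorvastatin mice 0.683 (exact permutation p = 0.0978).

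For the other genes no relation passed the test. Cspg4 had r = 0.309 with other precursor genes (rho = 0.495, permutation p for r = 0.369 and for rho = 0.0978, adjusted p = 0.42 and 0.255). With pericyte and smooth muscle genes it had r = 0.301 (rho = -0.0022, permutation p = 0.42 and 1, adjusted p = 0.42 and 1). That value turned to -0.084 without the 2 mice farthest from the median. Sox10 had r = 0.278 with mature oligodendrocyte genes (rho = 0.288, permutation p = 0.377 and 0.334, adjusted p = 0.42 and 0.401) and r = -0.493 with Schwann cell genes (rho = -0.424, permutation p = 0.118 and 0.155, adjusted p = 0.355 and 0.255). Without the 2 mice farthest from the median, r was -0.389 for Pdgfra with precursor genes and 0.374 for Cspg4 with them. For Sox10 it was 0.125 with mature genes and -0.406 with Schwann cell genes. SCI + Vehicle replicates 4 and 7 had 173 and 131 CPM of Sox10, inside or above the range of the other SCI mice (97.0 to 154 CPM). Schwann cell genes were upregulated in 1 of 9 (Cdh19) in both comparisons with the controls, beside 19.9% of all genes with vehicle and 24.9% with atorvastatin. Another 2 of 9 were downregulated with atorvastatin, beside 14% of all genes. Their summed level was 642 and 462 CPM in the controls, 118 to 373 CPM with vehicle and 285 to 467 CPM with atorvastatin.

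**Figure D4:**
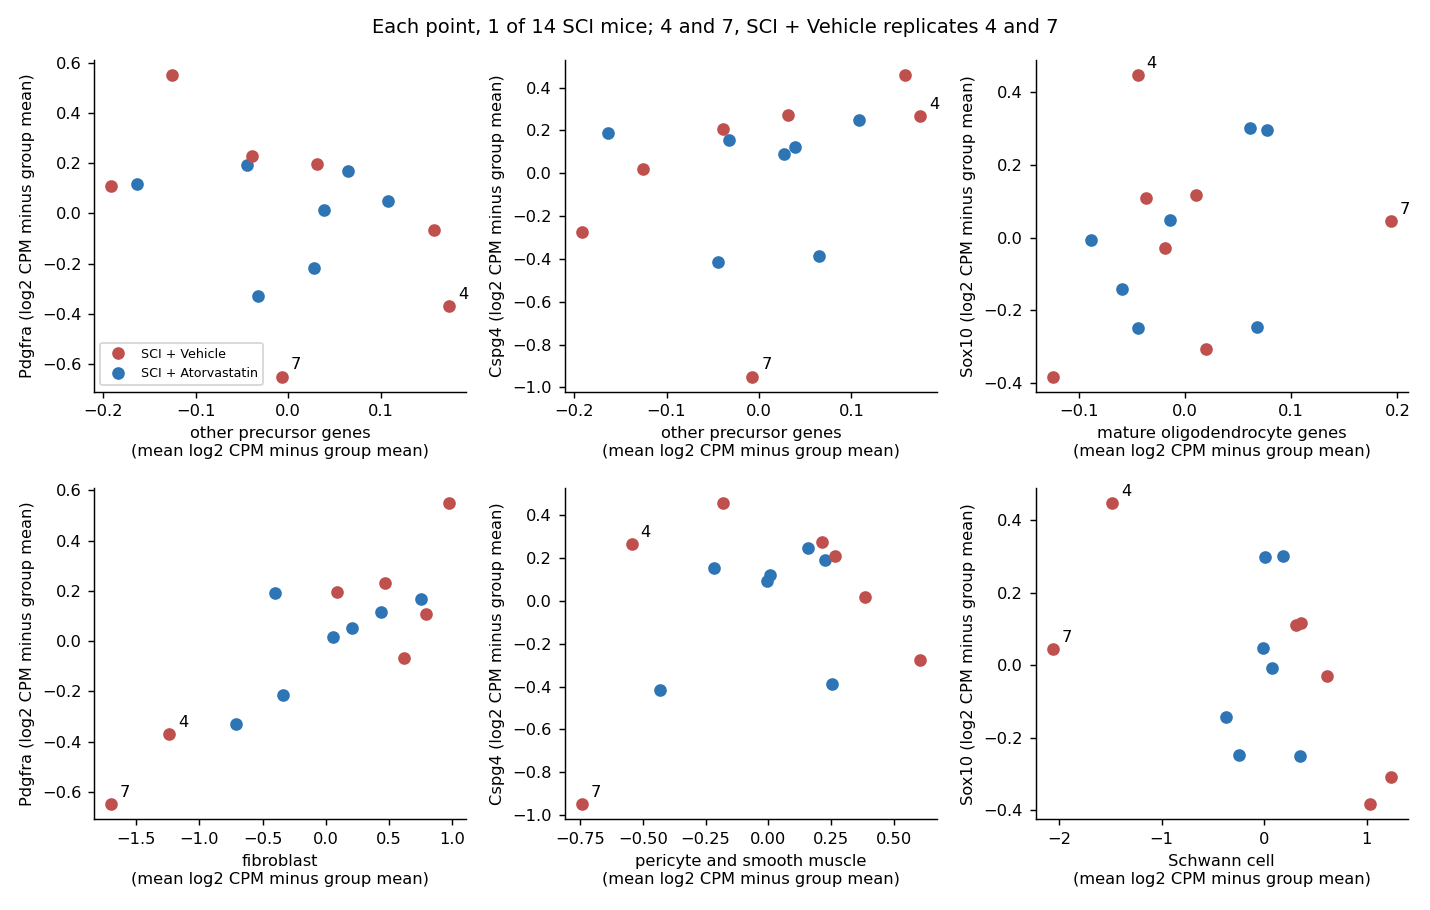
Pdgfra, Cspg4 and Sox10 (vertical axes, log2 CPM minus the group mean) against the mean of a gene list (horizontal axes, same scale) in the 14 SCI mice (points, red vehicle and blue atorvastatin), with SCI + Vehicle replicates 4 and 7 numbered. Pdgfra climbed with fibroblast genes (r = 0.855), with replicates 4 and 7 at the lower left, and the other 5 panels had r between -0.493 and 0.309.

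Within the treatment groups the 10 genes did not vary as 1 block. With the standardised mean of all 10 over the 14 SCI mice, Olig1 (r = 0.715), Sox10 (0.683) and Gpr17 (0.66) correlated most and Pdgfra not at all (0.00268), although each gene is part of that mean. Outside the 10, the 5 genes most alike in pattern were Shc3 (r = 0.898), Grb2 (0.883), Cspg5 (0.868), Efcab14 (0.858) and Slc39a3 (0.853). These values describe 14 mice and were picked as the highest of all genes tested.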

How the data were processed

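RNA was sequenced from 16 mouse spinal cords (7 SCI + Atorvastatin, 7 SCI + Vehicle and 2 Uninjured Control). Per the labels, the authors used Trimmomatic 0.38 for trimming, STAR 2.5.4b for alignment to mm10 and RSEM 1.3.1 for quantification. They deposited whole-number counts, without normalization, and TPM, which are corrected for gene length. The step that made the counts whole is not given in the sources used here. Groups came from the sample labels. Counts were scaled by TMM and tested pairwise with edgeR 4.0.16 in R 4.3.3 (quasi-likelihood, full library sizes, Benjamini-Hochberg over 16091 genes). The fold limit was 1.25, and an unadjusted p of 0.001 was used between treatments. Correlations used 100000 permutations within groups, two-sided, or all 5040 orders for 7 mice. A count of 0 allows up to 3 counts, which is 0.117 to 0.202 CPM, for counting error only. The labels number the mice as biological replicates. DESeq2 1.42.0 and limma 3.58.1 gave alternatives, and limma used log2(TPM + 1) or log2(TPM + 0.1). Other alternatives were DESeq2 size factors, 1 fit of all groups, other filters, a replicate block and mice left out. Voom with group quality weights and the fits without SCI + Vehicle replicates 4 and 7 were added after the data were seen. The edgeR, DESeq2 and limma steps were tested on simulated data. Named genes were the 10 genes and, per list, up to 4 genes with the smallest p with vehicle against control, 2 between treatments and any called there, plus cell type markers. Genes called with atorvastatin against control and named beyond this rule were picked with their values in view. The 10 genes, the lists and the tests were chosen with earlier results of these data known. Matrices and figures used Python 3.11.15 and matplotlib 3.10.9, and gene positions are from GENCODE vM21.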

Additional observations from a re-analysis of the deposited data

Results flagged for a closer look

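SCI + Vehicle replicate 7 stood apart for Bcas1, at 838 CPM against 611 to 670 CPM in the other 6 vehicle mice. The gap to the next mouse was 0.738 of the whole range of the group, above Dixon's 95% limit for 7 samples. It was the only one of 20 groups (10 genes in 2 treatment groups) to pass that limit, and chance flags about 1 in 20. The same mouse had the lowest Pdgfra (49.6 CPM) and Cspg4 (28.7 CPM) of all SCI mice, the lowest summed fibroblast genes (179 CPM) and the highest summed mature oligodendrocyte genes (19920 CPM) and neuron genes (11390 CPM) of the SCI mice.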

How the results depend on the processing

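Among the 10 genes, 3 were called with vehicle and 5 with atorvastatin against the controls, and 0 between treatments under every alternative run. With vehicle, 5 were called with all 3 groups in 1 fit (beside 40.9% of all genes) and 5 without SCI + Vehicle replicates 4 and 7 (27.2%). With atorvastatin, 3 were called by limma on log2(TPM + 1) and 3 on log2(TPM + 0.1), beside 39.3% and 41.8% of all genes. Voom with group quality weights called 0 of the 10 genes in both comparisons with the controls, where it called 0.814% and 0.901% of all genes. The replicate block likewise called 0 and 0, with 0.168% and 0% of all genes and 1 residual degree of freedom. Of all genes, a mean TPM above 1 in every group gave 19.1% called with vehicle in place of 29.8%. Between treatments the share was 0.106%, against 0.23% by DESeq2, 0.00621% in 1 fit of all groups, 0.0186% without SCI + Vehicle replicates 4 and 7, and 0.0497% both with the replicate block and by voom. Each SCI mouse received 1 treatment, so same-numbered mice of the 2 SCI groups were different animals. Their levels, with group means subtracted, correlated at -0.298 to 0.238, and 1 of 7 atorvastatin mice correlated best with its own number. These correlations cannot decide whether mice of the same number shared any handling, which was not tested. Leaving out 1 mouse gave 2 to 4 called with vehicle and 5 to 8 with atorvastatin, the highest count without Uninjured Control replicate 2 (8). With 1 control left, its spread is assumed to be that of the SCI mice.

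Log2 fold changes near 0 changed sign. With vehicle, Olig2 was 0.00017 with 1 fit of all groups, 0.01 with a mean TPM above 1 in every group, 0.46 and 0.49 by limma on TPM and 0.2 by voom, and -0.62 to 1.04 with 1 mouse left out. Sox10 was 0.01, 0.02, 0.0043 without a filter, 0.32 and 0.32, and 0.1 there, and -0.52 to 0.82 with 1 mouse left out. Enpp6 ran from -0.06 to 0.32 and Nkx2-2 from -0.25 to 0.75 with 1 mouse left out. With atorvastatin, Sox10 was -0.03 by DESeq2, -0.03 with its size factors and -0.01 in 1 fit, and -0.52 to 0.82 with 1 mouse left out. Olig2 was 0.36 and 0.38 by limma on TPM and 0.14 by voom, and -0.72 to 0.95 with 1 mouse left out, and Nkx2-2 ran from -0.15 to 0.86. The values at both ends of these ranges against the controls came from leaving out a control. Between treatments, limma on TPM gave 0.01 and 0.01 for Lhfpl3 and -0.04 and -0.04 for Nkx2-2, and voom -0.01 for Nkx2-2. Without SCI + Vehicle replicates 4 and 7, Olig1 was 0.05 and Sox10 0.08. With 1 mouse left out Sox10 ran from -0.08 to 0.06, Nkx2-2 from -0.02 to 0.22 and Lhfpl3 from -0.13 to 0.02.

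For the correlations, Pdgfra with fibroblast genes had r = 0.68 within the atorvastatin mice, 0.67 without the 2 mice farthest from the median and 0.56 without SCI + Vehicle replicates 4 and 7. Cspg4 had r = -0.06 with other precursor genes within the atorvastatin mice. With pericyte and smooth muscle genes it had -0.08 without the 2 farthest mice and -0.24 without replicates 4 and 7. Sox10 had r = 0.24 with Schwann cell genes within the atorvastatin mice. The cause of these shifts was not tested. The comparisons with uninjured cord rest on 2 controls, and the bounds for genes without a count there cover counting error only.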
